A study of Mus musculus with 6 samples.

Results

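The kinetochore is the protein plate on each centromere that holds a chromosome to the microtubules of the mitotic spindle, and the genes described here build it, load it or watch over it. Membership goes by name and uses no measured value, but the set was put together with earlier results of these data known: 42 genes of the kinetochore, the centromere, the spindle checkpoint and the chromosomal passenger complex. Of these, 41 were found on the array through a probe set with a single gene symbol, and Hjurp was not analysed here. They hold 83 of the 45037 probe sets in the table and 41 of the 18193 genes that could be tested.

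RNA came from mesenteric arteries, the small arteries that feed the gut, of 3 knockout mice (animals 72, 73 and 86) and 3 control mice (animals 30, 74 and 75). Knockout mice were positive for sm22alphaCRE, a recombinase driven by the promoter of a smooth muscle gene, and carried loxP-flanked beta1 integrin alleles, whereas control mice carried the same floxed alleles without Cre. Both groups were of mixed background (including FVB, SVJ129 and C57BL/6), received 14 doses of 1 mg tamoxifen at intervals of 24 h that began at 5 weeks, and were studied at an age of 7 weeks. Total RNA of 1 mouse was hybridised to each array, after fat and lymph tissue had, per the labels, been cleared from the vessels. The controls lacked Cre, so effects of the recombinase itself and of the deletion cannot be told apart. Animal 86 carries the letter F in its label and the other 5 animals carry M.

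Kinetochores are assembled in layers. A nucleosome with the histone variant CENP-A marks the centromere, a constitutive network of CENP proteins binds it, and the KNL1, MIS12 and NDC80 assemblies of the outer layer reach from that network to the microtubule. While a kinetochore is unattached, the checkpoint kinases and MAD proteins hold back the anaphase-promoting complex, and the Aurora B complex releases faulty attachments. Many of these genes are transcribed late in the cell cycle and are silent in resting cells, and vascular smooth muscle of a healthy adult artery divides rarely.

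The arrays had a median intensity between 62.8 and 72.6. The targeted gene Itgb1, read by the brightest of its probe sets, stood at 60.1% of the control level (limma adjusted p = 0.134), with all 3 knockout arrays below all 3 control arrays, and where its probe sets lie relative to the deleted part was not determined here. Smooth muscle markers were strongly present in both groups, with a summed intensity over 8 genes of 47695.1 to 62167.8 in knockout and 56291.2 to 69515.0 in control arrays. Of the 8 genes 7 had a lower mean in the knockout, and Myh11, Tagln and Lmod1 lay lower in every knockout array than in any control, with Lmod1 at 43.6% of control (adjusted p = 0.0505). Of 8 macrophage markers, all 8 had a higher mean in the knockout, with a median difference of 1.54. In 6 of them every knockout array lay above every control array. Over all genes, 10.4% had every knockout array above every control array and 12.7% had every one below. None of the 8 passed the threshold and none lay at the floor of the table. Their summed intensity was 6158.2 to 16742.4 in knockout arrays and 2385.5 to 4018.3 in control arrays, with its highest value in knockout 73. Of 6 fibroblast markers, 4 had a higher mean in the knockout and 2 did not overlap, and their mean log2 levels overlapped between the groups, at 11.31 to 11.54 in knockout and 10.62 to 11.42 in control arrays. All 6 endothelial markers had a lower mean in the knockout, 3 of them without overlap, with sums of 11571.7 to 15501.2 in knockout and 16218.5 to 19437.7 in control arrays. The Schwann cell markers on the array, Sox10 and S100b, both lay lower in every knockout array, with sums of 976.1 to 1435 in knockout and 1681.3 to 2503.2 in control arrays. Adipocyte markers (5 genes) were present in every array, at sums of 6578.7 to 11320.1 in knockout and 4041.6 to 25855.8 in control arrays, and overlapped. No gene of these lists passed the threshold. T cell markers (6 genes, 205.1 to 285.3 in knockout and 176.8 to 198.6 in control arrays) and B cell markers (4 genes, 92.8 to 381.4 and 114.7 to 150.6) were dim in both groups. The part of these cells in the differences of the kinetochore genes was not tested.

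Promoters are shown first. Many late cell cycle genes share a short element near their start, the CHR (cell cycle genes homology region), together with CCAAT boxes. The CHR is bound by the MuvB core of the DREAM complex, and CCAAT boxes are bound by NF-Y. RefSeq promoter windows (GRCm38.p6, 250 bases before to 50 after the start) were matched by gene ID for 35 of the 41 genes. The windows were searched on both strands for the CHR letters TTTGAA and for CCAAT. Of the 35 genes, 16 (45.7%) had a CHR match, against 20.2% of all 27025 genes with a window, and 24 (68.6%) had a CCAAT match, against 41.1% of all. A match of both kinds was found in 13 (37.1%), against 7.97% of all genes. A match is a run of letters and not a shown binding site, and base composition was not matched between the windows compared.

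The windows printed here belong to the 4 genes with the smallest p-values that hold a CHR match, and to Zw10 and Zwint, with the largest p-values among the genes with a window. Capitals mark TTTGAA or CCAAT, or its reverse complement ATTGG, each line runs 5′ to 3′ on the strand of the gene, and the positions are chr2:69206164-69206463 on the minus strand for Spc25, chr4:124936868-124937167 on the minus strand for Cdca8, chr1:189688037-189688336 on the minus strand for Cenpf, chr2:118597961-118598260 on the plus strand for Bub1b, chr9:49055331-49055630 on the plus strand for Zw10 and chr10:72654596-72654895 on the plus strand for Zwint.
Spc25: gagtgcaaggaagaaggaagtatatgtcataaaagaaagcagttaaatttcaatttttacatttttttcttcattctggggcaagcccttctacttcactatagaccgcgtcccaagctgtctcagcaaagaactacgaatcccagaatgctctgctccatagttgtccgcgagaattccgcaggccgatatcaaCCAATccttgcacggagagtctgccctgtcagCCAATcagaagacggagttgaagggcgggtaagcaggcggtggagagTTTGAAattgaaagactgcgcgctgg
Cdca8: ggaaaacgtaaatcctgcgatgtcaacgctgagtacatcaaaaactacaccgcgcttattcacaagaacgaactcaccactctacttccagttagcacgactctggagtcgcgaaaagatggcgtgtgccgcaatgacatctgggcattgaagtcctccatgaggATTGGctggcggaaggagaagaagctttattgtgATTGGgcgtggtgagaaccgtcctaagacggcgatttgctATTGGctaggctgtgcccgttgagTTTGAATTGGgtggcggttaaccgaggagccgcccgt
Cenpf: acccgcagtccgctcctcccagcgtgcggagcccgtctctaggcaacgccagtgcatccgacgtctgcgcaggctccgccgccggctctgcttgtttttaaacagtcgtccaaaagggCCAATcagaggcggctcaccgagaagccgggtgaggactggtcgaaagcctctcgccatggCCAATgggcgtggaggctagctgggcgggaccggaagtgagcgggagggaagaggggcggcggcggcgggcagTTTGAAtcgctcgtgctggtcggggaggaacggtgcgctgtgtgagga
Bub1b: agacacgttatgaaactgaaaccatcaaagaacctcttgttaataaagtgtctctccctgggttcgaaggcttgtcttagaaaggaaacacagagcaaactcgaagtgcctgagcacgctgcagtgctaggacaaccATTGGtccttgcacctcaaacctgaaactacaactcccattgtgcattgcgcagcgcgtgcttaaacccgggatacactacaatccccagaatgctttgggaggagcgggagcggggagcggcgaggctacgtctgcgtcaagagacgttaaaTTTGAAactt
Zw10: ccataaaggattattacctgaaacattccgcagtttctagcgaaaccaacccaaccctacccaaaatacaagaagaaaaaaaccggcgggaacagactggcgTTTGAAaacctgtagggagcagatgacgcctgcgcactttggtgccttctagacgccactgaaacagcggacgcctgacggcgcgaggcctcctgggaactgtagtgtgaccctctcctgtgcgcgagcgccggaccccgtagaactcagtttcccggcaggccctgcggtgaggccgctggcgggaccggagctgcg
Zwint: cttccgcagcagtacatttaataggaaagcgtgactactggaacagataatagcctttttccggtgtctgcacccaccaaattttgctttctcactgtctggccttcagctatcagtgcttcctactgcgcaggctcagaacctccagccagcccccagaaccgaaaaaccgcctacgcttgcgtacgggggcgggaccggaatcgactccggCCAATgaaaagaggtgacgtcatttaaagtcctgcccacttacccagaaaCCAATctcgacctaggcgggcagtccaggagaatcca
In Spc25, Cdca8, Cenpf and Bub1b the CHR match began 25, 14, 3 and 41 bases after the annotated start, with CCAAT matches further upstream. In Cdca8 another CCAAT box, in the opposite direction, began 19 bases after the start and shared the last letter of the CHR match. The CHR match of Zw10 lay 148 bases before the start with no CCAAT match in the window, and Zwint had CCAAT matches and no TTTGAA. Among genes past the threshold described next, 10 of 18 with a window (55.6%) had a CHR match, and among those not past it 6 of 17 (35.3%). Nuf2 and Birc5, which rose in the knockout, had a match of neither kind in their windows.

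Values are log2(intensity + 1) after quantile normalization, called log2 levels here, and a difference is the mean of the knockout arrays minus that of the control arrays. A gene was called higher or lower when its limma p, adjusted by Benjamini-Hochberg over all 18193 genes, was under 0.05, and no gene was removed for low signal. Of the 41 genes, 22 rose in the knockout and 0 fell, whereas 1.46% of all genes rose and 0.401% fell (1.86% in either direction). At an unadjusted p under 0.05, 0 of the 41 were lower. In 33 of 41 every knockout array lay above every control array, against 10.4% of all genes, and in 1 every knockout array lay below, against 12.7% of all genes. Differences were positive in 37 of the 41, against 42.5% of all genes. The median difference over the 41 genes was 1.58, against -0.07 over all genes. RNA of whole arteries cannot tell more cells that express a gene from more RNA per cell. Without control 75 the count of 22 was 14 (13 of the 22 and Ska1), without knockout 72 it was 11 and without knockout 86 it was 14. In 11 of the 22 genes the call held in all 6 fits that left out 1 array, and in 12 when every gene was kept at the probe set it has in the fit of 6 arrays, a setting added after the data were seen in which the count without knockout 72 was 12.

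**Figure D1:**
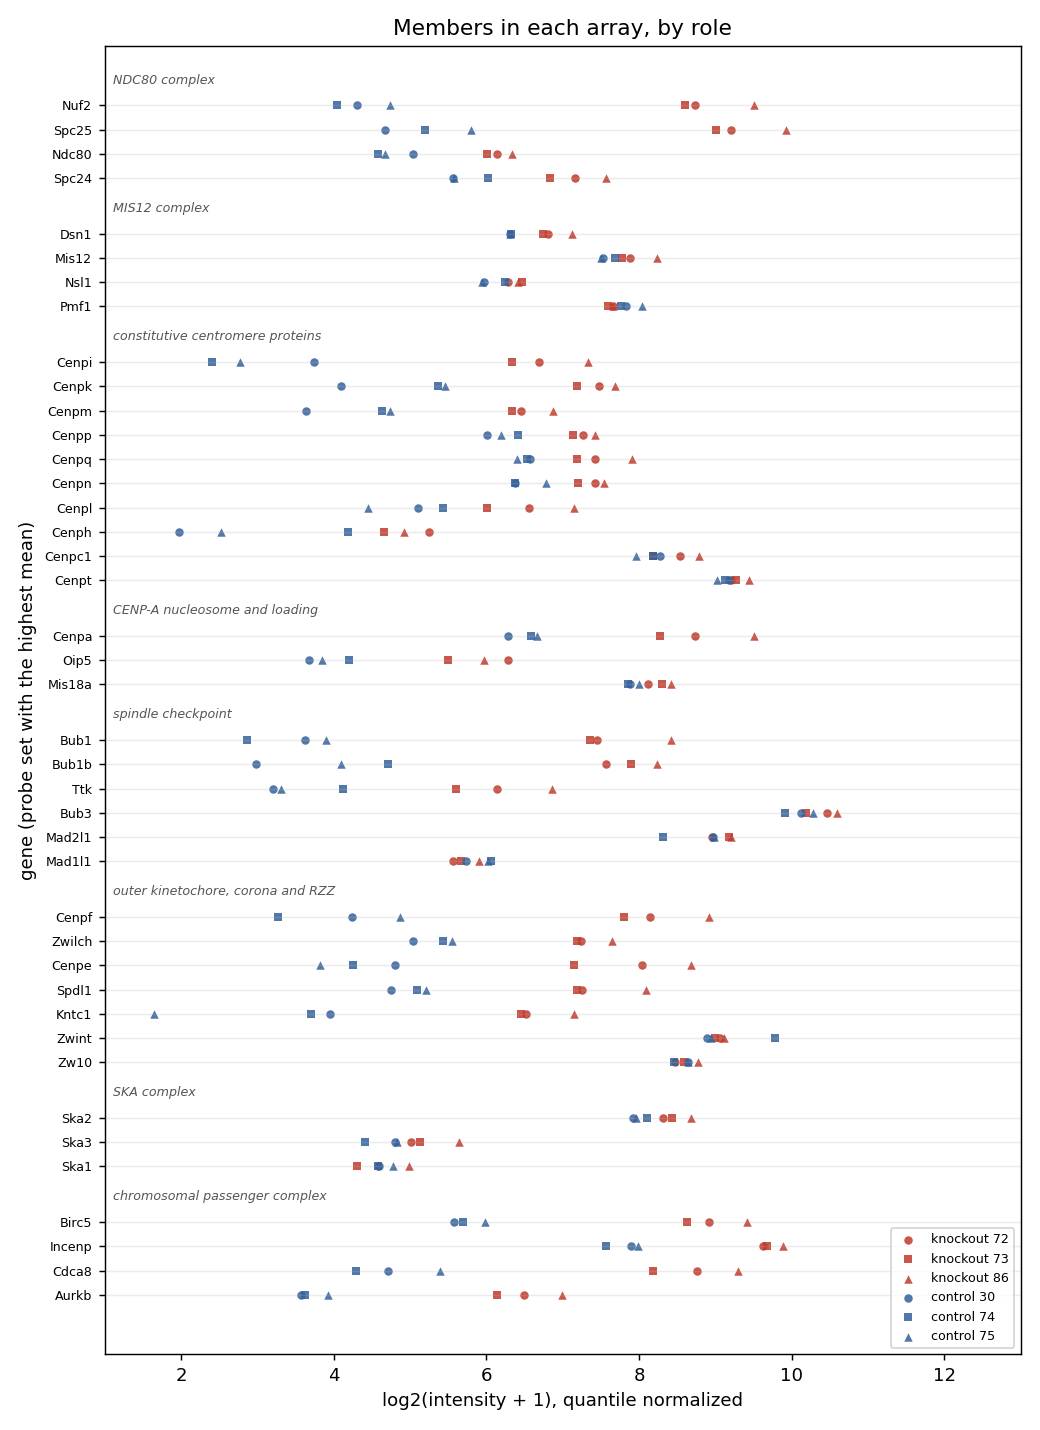
Log2 level of the 41 genes (rows, grouped by role) in each of the 3 knockout arrays (red) and 3 control arrays (blue), 1 point per array. In 33 rows all red points lie to the right of all blue ones, and in the MIS12 and SKA rows the differences between the group means are at most 0.58.

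**Figure D2:**
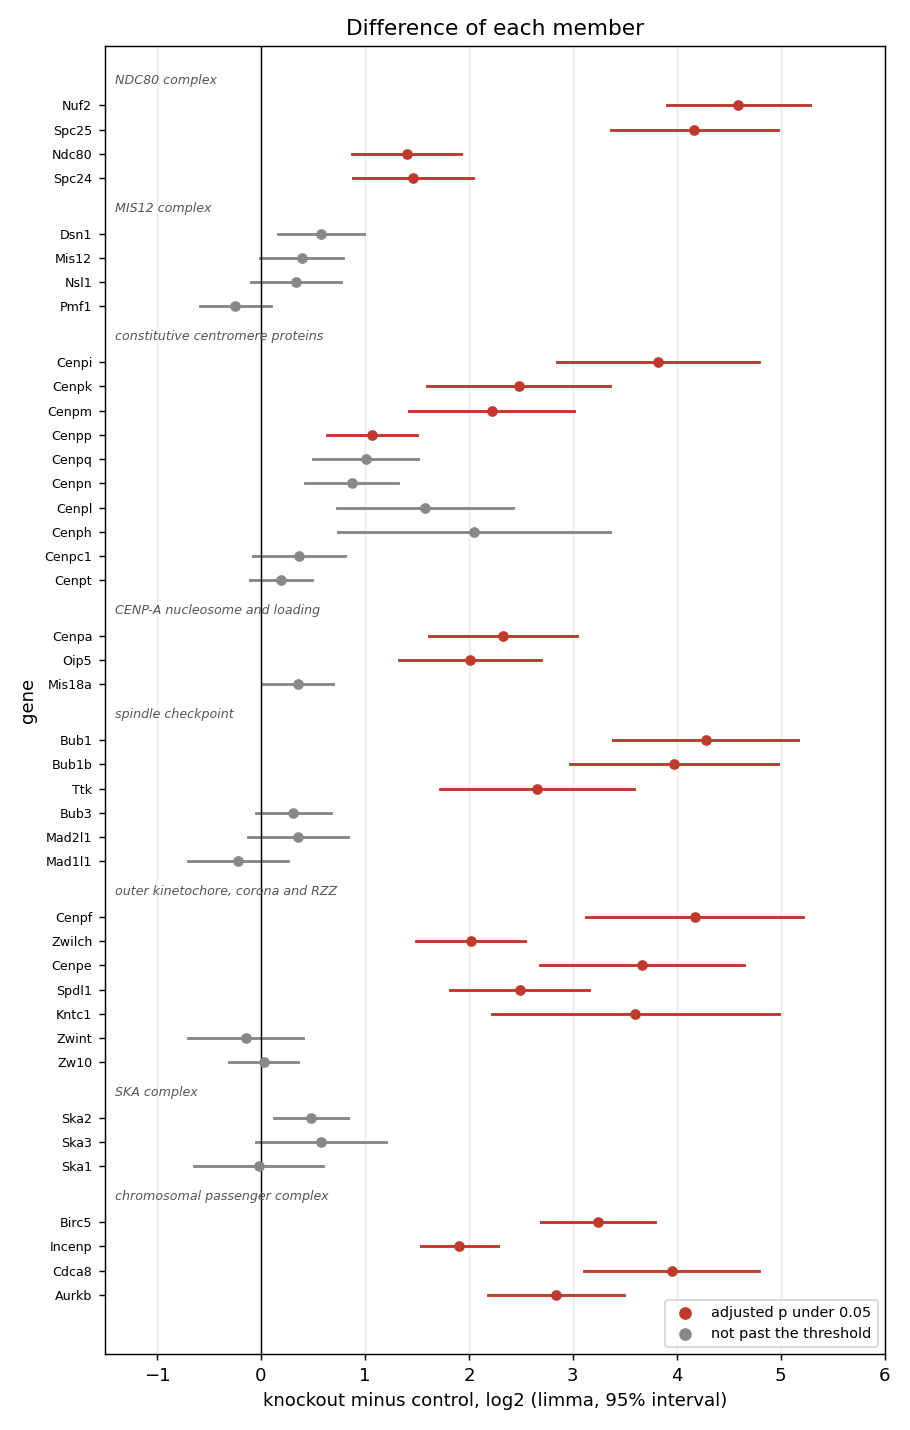
Difference between knockout and control (log2, horizontal axis) of each gene with its 95% limma interval. The 22 genes past the threshold are red, with differences between 1.07 and 4.59, and the other 19 are grey.

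The NDC80 complex, the 4-protein rod that grips the microtubule, rose as a whole: 4 of 4 genes passed the threshold, with a median difference of 2.82. Nuf2, which pairs with Ndc80 in the end of the rod that contacts the microtubule, had log2 levels of 8.74, 8.60 and 9.51 in knockout arrays 72, 73 and 86, against 4.30, 4.04 and 4.74 in control arrays 30, 74 and 75. Its difference was 4.59 ± 0.30 (SE of the limma fit, n = 3 each), a 24.1-fold change (14.3-fold with a pseudocount of 16). The adjusted p by limma was 0.0011. Every SE given after ± comes from a limma fit, which draws the variance of a gene toward a trend over all genes. Nuf2 had the largest difference of the 41 genes, and its lowest knockout array lay well above its highest control array. Spc25, part of the opposite end of the rod that docks onto the MIS12 complex, had 9.21, 9.01 and 9.93 in knockout and 4.66, 5.19 and 5.80 in control arrays. The difference of Spc25 was 4.17 ± 0.34, or 17.97-fold (adjusted p = 0.00188). Its partner Spc24 had 7.16, 6.83 and 7.57 in knockout and 5.57, 6.01 and 5.58 in control arrays, a difference of 1.47 ± 0.25 (adjusted p = 0.0335). Ndc80 itself, the largest subunit, had 6.13, 6.01 and 6.34 in knockout and 5.04, 4.57 and 4.67 in control arrays, a difference of 1.40 ± 0.23 (adjusted p = 0.0278). Whether the differences are unequal between the 4 subunits was not tested. The call of Ndc80 held without control 30 and was lost without any of the other 5 arrays (adjusted p up to 0.129). The call of Spc24 held without control 74 and was likewise lost without any of the others (adjusted p up to 0.137).

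The MIS12 complex, the 4-protein link between the centromere and the NDC80 rod, had 0 of 4 genes past the threshold and a median difference of 0.37. Dsn1, the subunit through which Aurora B controls the link to the centromere, had 6.81, 6.74 and 7.12 in knockout and 6.31, 6.32 and 6.31 in control arrays. The knockout arrays of Dsn1 were all higher, by 0.58 ± 0.18 on average, but the adjusted p was 0.169. Mis12 had 7.88, 7.78 and 8.23 in knockout and 7.53, 7.68 and 7.50 in control arrays (adjusted p = 0.301, 95% interval of the difference -0.01 to 0.79). Nsl1 had 6.28, 6.47 and 6.41 in knockout and 5.97, 6.24 and 5.94 in control arrays (adjusted p = 0.402). In these 3 genes the groups did not overlap, with the knockout above. Pmf1, the fourth subunit, was the single gene of the 41 with every knockout array below every control array, at 7.65, 7.59 and 7.66 in knockout and 7.83, 7.77 and 8.04 in control arrays. The difference of Pmf1 was -0.25 (95% interval -0.59 to 0.09, adjusted p = 0.442). The probe set of Pmf1 has the suffix x, which marks probes that may also match other sequences, and the other probe set of the gene had a difference of 0.02.

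The constitutive centromere network, which stays on the centromere through the cell cycle and carries the outer kinetochore in mitosis, had 4 of 10 genes past the threshold. All 10 differences were positive, with a median of 1.32, and in 9 of the 10 genes the groups did not overlap. Cenpi, on chromosome X, had the largest difference, with 6.69, 6.34 and 7.33 in knockout and 3.73, 2.40 and 2.78 in control arrays (3.82 ± 0.42, 14.1-fold, or 5.43-fold with a pseudocount of 16, adjusted p = 0.00616). CENP-I binds together with CENP-H and CENP-K, which belong to the same subcomplex. Cenpk had 7.48, 7.19 and 7.69 in knockout and 4.09, 5.37 and 5.46 in control arrays (2.48 ± 0.38, adjusted p = 0.0228). Cenph had 5.25, 4.65 and 4.92 in knockout and 1.96, 4.19 and 2.51 in control arrays, a difference of 2.05 with an adjusted p of 0.130. Control 74 lay far above the other 2 controls of Cenph, and without that array the adjusted p was 0.0261.

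Cenpm, a small subunit that binds CENP-I, had 6.45, 6.34 and 6.88 in knockout and 3.63, 4.63 and 4.74 in control arrays (2.22 ± 0.34, adjusted p = 0.0230). Cenpp, of the CENP-O group of subunits, had 7.27, 7.13 and 7.42 in knockout and 6.01, 6.42 and 6.19 in control arrays (1.07 ± 0.19, adjusted p = 0.0365), the smallest difference among genes past the threshold. The calls of Cenpk and Cenpm held without control 30 or control 74 and were lost without any of the other 4 arrays (adjusted p up to 0.104 for both), and that of Cenpp held without control 74 alone (up to 0.156). Cenpq, Cenpn and Cenpl lay just outside the threshold, with differences of 1.01, 0.87 and 1.58 and adjusted p-values of 0.0722, 0.0778 and 0.0884. CENP-N and CENP-L form the pair that recognises the CENP-A nucleosome, and CENP-Q belongs with CENP-P to the CENP-O group. Cenpc1, which encodes the CENP-C scaffold that joins the nucleosome to the MIS12 complex, had a difference of 0.37 with overlapping groups (adjusted p = 0.376). Cenpt, a histone-fold subunit that recruits NDC80 by a second route, had 9.20, 9.27 and 9.44 in knockout and 9.18, 9.13 and 9.02 in control arrays. Its difference was 0.19 (95% interval -0.10 to 0.49, adjusted p = 0.489).

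The CENP-A nucleosome and its loading factors had 2 of 3 analysed genes past the threshold. Cenpa, the histone H3 variant itself, had 8.74, 8.28 and 9.51 in knockout and 6.29, 6.59 and 6.66 in control arrays (2.33 ± 0.30, 5.03-fold, adjusted p = 0.0122). The 2 dimmer probe sets of Cenpa had differences of 0.40 and 0.35 with overlapping groups, and neither was called in the fit of every probe set. Oip5, whose human counterpart MIS18-beta readies the centromere for new CENP-A, had 6.29, 5.49 and 5.97 in knockout and 3.67, 4.20 and 3.85 in control arrays (2.01 ± 0.29, adjusted p = 0.0191). Mis18a, the partner of Oip5 in that complex, had 8.11, 8.30 and 8.41 in knockout and 7.89, 7.86 and 8.0001 in control arrays, with an adjusted p of 0.269. All 3 genes had every knockout array above every control array. The call of Cenpa was lost without control 75 or knockout 72 (adjusted p up to 0.0682) and, with every gene kept at its probe set of the fit of 6 arrays, also without control 30 (0.0505), and that of Oip5 held without control 74 or knockout 73 and was lost without any of the other 4 arrays (up to 0.0984).

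Among the 6 spindle checkpoint genes, the 3 kinases and kinase-like scaffolds Bub1, Bub1b and Ttk rose, and Bub3, Mad2l1 and Mad1l1 did not pass the threshold. Bub1, the kinase that marks centromeric histone H2A, had 7.45, 7.35 and 8.42 in knockout and 3.62, 2.86 and 3.90 in control arrays (4.28 ± 0.38, 19.4-fold, or 8.72-fold with a pseudocount of 16, adjusted p = 0.00250). Bub1b, which encodes BubR1, a component of the complex that inhibits the anaphase-promoting complex, had 7.57, 7.90 and 8.23 in knockout and 2.98, 4.70 and 4.09 in control arrays. The difference of Bub1b was 3.97 ± 0.43, or 15.7-fold (8.17-fold with a pseudocount of 16, adjusted p = 0.00608). Ttk, or MPS1, the kinase that starts checkpoint signalling, had 6.14, 5.60 and 6.86 in knockout and 3.20, 4.12 and 3.31 in control arrays (2.66 ± 0.40, adjusted p = 0.0222). The groups of these 3 genes did not overlap. The call of Ttk held without control 74 or knockout 73 and was lost without any of the other 4 arrays (adjusted p up to 0.105).

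Bub3, the adaptor that brings Bub1 and BubR1 to the kinetochore, was bright in both groups, at 10.46, 10.19 and 10.59 in knockout and 10.12, 9.91 and 10.29 in control arrays. Its groups overlapped, with an adjusted p of 0.360, and the difference of 0.31 was -0.28 when probe sets with the suffix x or s were left out. Mad2l1 encodes MAD2, which binds CDC20 when the checkpoint is active, and had a difference of 0.36 (adjusted p = 0.425, groups overlapping). Mad1l1, which encodes MAD1, the platform for MAD2 at unattached kinetochores, had 5.56, 5.67 and 5.90 in knockout and 5.73, 6.05 and 6.02 in control arrays. The difference of Mad1l1 was -0.22 (95% interval -0.70 to 0.26, adjusted p = 0.627), and its groups overlapped.

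Of 7 genes of the outer kinetochore, its fibrous corona and the RZZ complex, 5 rose, with a median difference of 2.49 over the 7. Cenpf, a large microtubule-binding protein of the corona, had 8.15, 7.81 and 8.92 in knockout and 4.23, 3.26 and 4.87 in control arrays (4.17 ± 0.45, 18.02-fold, or 9.9-fold with a pseudocount of 16, adjusted p = 0.00608). Cenpe, the kinesin that carries chromosomes to the spindle equator, had 8.04, 7.14 and 8.68 in knockout and 4.80, 4.24 and 3.81 in control arrays (3.67 ± 0.42, 12.7-fold, or 7.585-fold with a pseudocount of 16, adjusted p = 0.00717). Leaving out knockout 72 moved the adjusted p of Cenpe to 0.0522. Spdl1, or Spindly, the adaptor that recruits dynein, had 7.25, 7.19 and 8.09 in knockout and 4.75, 5.10 and 5.21 in control arrays (2.49 ± 0.29, adjusted p = 0.00717).

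The RZZ complex, of Rod, Zwilch and ZW10, builds the corona and holds Spindly and MAD1 there, and 2 of its 3 genes rose. Zwilch had 7.23, 7.19 and 7.64 in knockout and 5.03, 5.43 and 5.55 in control arrays (2.02 ± 0.22, 4.05-fold, adjusted p = 0.00682). Kntc1, which encodes Rod, had a difference of 3.60 ± 0.59, or 2.26 with a pseudocount of 16, and an adjusted p of 0.0301. One array weighed on Kntc1: control 75 lay at a log2 level of 1.65, an intensity of 2.22, while controls 30 and 74 lay at 3.96 and 3.70. The call of Kntc1 held without control 30 or control 75 and was lost without any of the other 4 arrays (adjusted p up to 0.123). Zw10, which also serves in membrane traffic between the Golgi and the endoplasmic reticulum, had 8.47, 8.59 and 8.77 in knockout and 8.64, 8.46 and 8.64 in control arrays. The difference of Zw10 was 0.03 (95% interval -0.30 to 0.36, adjusted p = 0.942), and it was -0.016 under median centring. No test between genes was made. Zwint, which joins the RZZ complex to KNL1, had a difference of -0.15 with an adjusted p of 0.801 and overlapping groups.

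The SKA complex, which tracks the ends of microtubules beside NDC80, had 0 of 3 genes past the threshold when each gene was taken at its brightest probe set. Ska2 had 8.32, 8.43 and 8.68 in knockout and 7.92, 8.11 and 7.96 in control arrays (adjusted p = 0.174). Ska3 had 5.01, 5.13 and 5.64 in knockout and 4.80, 4.41 and 4.83 in control arrays (adjusted p = 0.331). Both had every knockout array above every control array. Ska1 had 4.58, 4.30 and 4.99 in knockout and 4.59, 4.57 and 4.78 in control arrays, a difference of -0.02 with an adjusted p of 0.976. The other probe sets of Ska1 had other values in the fit of all 45037 probe sets. One had 6.17, 5.70 and 7.01 in knockout and 2.48, 2.02 and 2.42 in control arrays, a difference of 3.99 ± 0.38 (adjusted p = 0.00621). Another had 6.12, 5.76 and 6.94 in knockout and 2.59, 3.23 and 3.09 in control arrays, a difference of 3.31 ± 0.37 (adjusted p = 0.0118). This last probe set had group means of 6.275 in knockout and 2.97 in control arrays, against 4.62 and 4.65 for the one taken. Their means over the 6 arrays were thus nearly equal. In intensity, the one taken lay at 19.21 to 30.87 in all arrays, and the others at 52.04 to 131 in the knockout arrays. Whether the probe sets of Ska1 read the same transcripts cannot be told from the table, so the direction of this gene depends on the probe set taken.

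The chromosomal passenger complex, which places the kinase Aurora B at the inner centromere to release faulty attachments, rose in all 4 genes, with a median difference of 3.04. Birc5, or survivin, which reads the phosphate mark on histone H3 that positions the complex, had 8.92, 8.63 and 9.42 in knockout and 5.57, 5.69 and 5.98 in control arrays (3.24 ± 0.23, 9.47-fold, adjusted p = 0.00131). Incenp, the scaffold that activates the kinase, had 9.62, 9.68 and 9.88 in knockout and 7.89, 7.57 and 7.99 in control arrays (1.91 ± 0.16, 3.76-fold, adjusted p = 0.00188). Cdca8, or borealin, which targets the complex to nucleosomes, had 8.76, 8.19 and 9.30 in knockout and 4.71, 4.29 and 5.39 in control arrays (3.95 ± 0.36, 15.4-fold, adjusted p = 0.00289). Aurkb, the kinase, had 6.49, 6.14 and 6.99 in knockout and 3.56, 3.63 and 3.93 in control arrays (2.84 ± 0.28, 7.14-fold, or 3.86-fold with a pseudocount of 16, adjusted p = 0.00409). Every knockout array lay above every control array in the 4 genes. Without control 75, knockout 72 or knockout 73 the other probe set of Aurkb became the brightest, and it was not past the threshold without control 75 or knockout 72 (adjusted p up to 0.0931). Kept at its own probe set, Aurkb passed the threshold in all 6 fits that left out 1 array (adjusted p up to 0.0362). The calls of Birc5, Incenp and Cdca8 held without any 1 array, as did those of Nuf2, Spc25, Cenpi, Bub1, Bub1b, Cenpf, Zwilch and Spdl1.

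The 22 genes past the threshold all differed by at least 2-fold and 10 of them by at least 8-fold. These sizes depend on the pseudocount where the control level is low: with a pseudocount of 16, 21 of the 22 differed by at least 2-fold and 6 by at least 8-fold, with folds between 1.91 for Cenpp and 14.3 for Nuf2. The table holds no detection calls, so whether a dim probe set lay above background in the control arrays was not determined. Among the 19 others, 3 had a difference of at least 2-fold and 7 had an unadjusted p under 0.05. Over all 41 genes, 27 had a mean over the 6 arrays at or above 6.10, the median of all probe set means on the log2 scale. Of those 27, 11 had a control mean under that level, so a filter on signal would have kept them through their knockout arrays. The other 14 genes were dim on average, and 9 of the 22 calls lay among them. Adding 1 shrinks the ratio of the deposited intensities in dim genes. Whether their fold changes are too small or too large was not determined.

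Of the 41 genes, 22 are read by several probe sets and 19 by 1. In the fit of every probe set, 29 of the 83 probe sets rose and 0 fell, against 0.766% of all probe sets that rose and 0.124% that fell. Without knockout 72 the count of 29 was 7. Of the 22 genes with several probe sets, all probe sets were called in 3 (Cdca8, Aurkb and Cenpe), some in 10 and none in 9. For Spc25, the dimmer probe set had 4.94, 5.27 and 5.26 in knockout and 5.10, 5.37 and 4.74 in control arrays and was not called, beside the brighter one with its 17.97-fold change. For Cenpp the order was turned: a dimmer probe set had 6.68, 6.22 and 6.88 in knockout and 3.35, 4.27 and 4.31 in control arrays, a difference of 2.62 (adjusted p = 0.0190), while the brightest had an adjusted p of 0.0601 in this fit. The brightest probe set of Incenp has the suffix x, and a probe set of Incenp without that suffix rose by 1.78 (adjusted p = 0.0123). The brightest of Bub1b has the suffix s, which marks probes common to several transcripts, and a probe set without it rose by 2.54 (adjusted p = 0.0123). Cdca8 also had a probe set without a suffix that rose, by 2.94 (adjusted p = 0.0110). Both probe sets of Aurkb carry a suffix, x or s, so signal from a near-identical sequence cannot be told apart there. Zwint has 7 probe sets, of which 0 were called, with differences between -0.60 and 0.62. Those with differences of 0.49 and 0.62 had every knockout array above every control array. The one at -0.60 lay at intensities of 1.19 to 8.62, and the brightest, at -0.15, had its highest value in control 74.

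**Figure D3:**
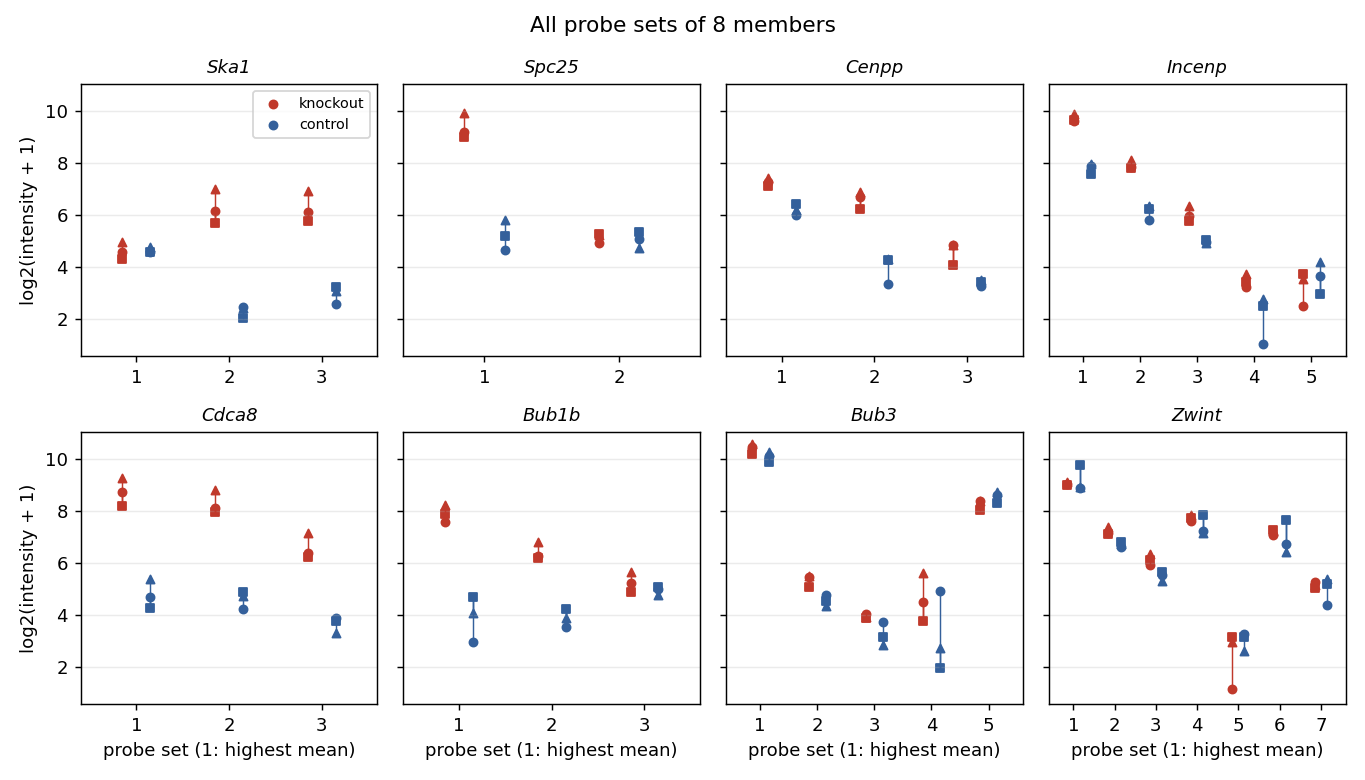
Log2 level in knockout (red) and control (blue) arrays of each probe set of 8 genes. The brightest probe set of each gene comes first, and the others follow by rising p in the fit of every probe set. The groups are apart in 2 of the 3 probe sets of Ska1 but not in the one with the highest mean log2 level, by a narrow margin. They are apart in the brightest of Spc25 but not in its dimmer one.

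The 3 knockout arrays were not equal. Knockout 86 was the highest of the knockout arrays in 38 of the 41 genes (92.7%), whereas it was the highest in 32.8% of all genes. Its level exceeded the mean of the other knockout arrays by a median of 0.43 over the 41 genes (range -0.03 to 1.09), against -0.02 over all genes. Knockout 73 was the lowest knockout array in 31 genes (75.6%), against 34.6% of all genes. Averaged over the 41 genes, the log2 level was 7.51, 7.33 and 7.91 in knockouts 72, 73 and 86, and 5.71, 5.84 and 5.84 in controls 30, 74 and 75. The macrophage markers had another order: their mean log2 level was 9.02, 10.43 and 8.59 in the knockout arrays and 7.22, 8.12 and 7.93 in the control arrays. Among the knockouts, knockout 73 had the highest macrophage markers and the lowest kinetochore levels, and knockout 86 the reverse. Both means were higher in every knockout array than in any control array. A relation between them was not tested. Smooth muscle markers averaged 12.53, 12.20 and 12.47 in knockout and 12.95, 12.38 and 12.92 in control arrays. Animal 86 is also the one with the letter F, so its label and its level cannot be told apart, and with that array left out the median difference of the 41 genes was 1.31. Mki67, a general marker of proliferating cells, had 10.07, 10.001 and 10.65 in knockout and 6.10, 6.33 and 6.28 in control arrays (4.0008, adjusted p = 0.000762), with knockout 86 again highest and knockout 73 lowest.

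**Figure D4:**
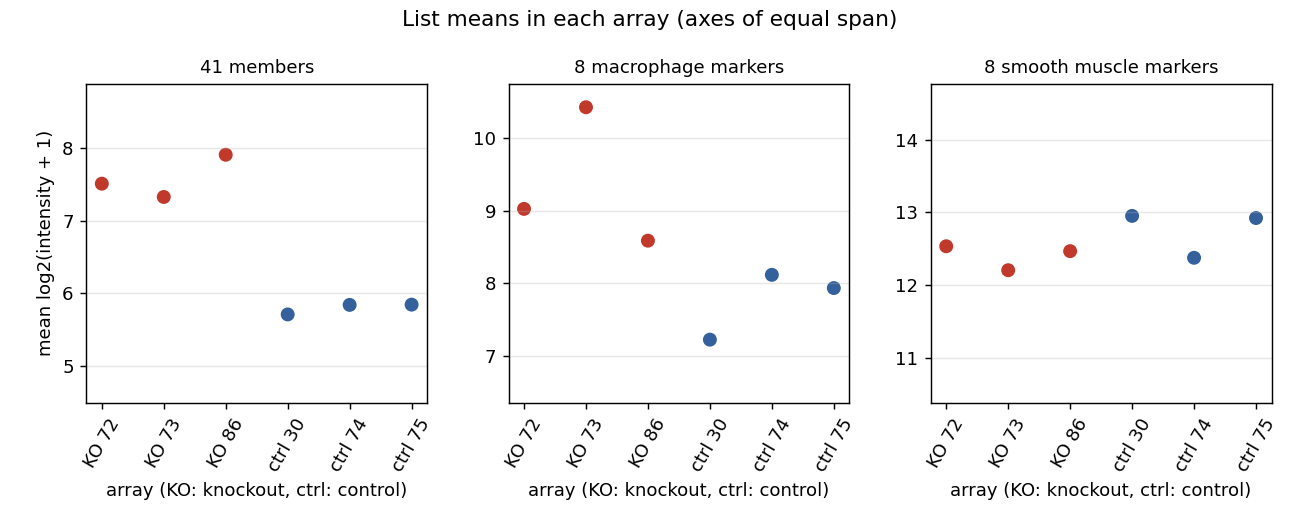
Mean log2 level per array over the 41 kinetochore genes, 8 macrophage markers and 8 smooth muscle markers, with knockout arrays left of control arrays. The kinetochore mean lies at 7.33 to 7.91 in knockout and 5.71 to 5.84 in control arrays. The macrophage mean lies at 8.59 to 10.43 in knockout and 7.22 to 8.12 in control arrays, and is highest in knockout 73.

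Other genes of chromosome segregation were read from 6 lists of 79 genes, of which 77 were on the array under a single symbol. Of the 77, 18 rose and 0 fell, whereas 1.46% of all genes rose and 0.401% fell. At an unadjusted limma p under 0.05, 2 (Pttg1 and Rbl2) were lower. Without knockout 72 the count of 18 was 10. Among 17 further centromere and kinetochore genes, 3 rose: Sgo2a (3.41, adjusted p = 0.00250) and Sgo1 (2.28, 0.00717), the shugoshins that guard cohesion at the centromere, and Haspin (3.27, 0.00289), the kinase whose mark on histone H3 is read by survivin. Cenpu, the next in order, had a difference of 0.78 (adjusted p = 0.179). The call of Sgo1 was lost without knockout 72 (adjusted p = 0.053).

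The target of the checkpoint, the anaphase-promoting complex, was listed with its partners and separase, and 3 of 19 genes rose. They were Ube2c (4.80, adjusted p = 0.00188), the enzyme that supplies it with ubiquitin, its activator Cdc20 (1.37, 0.00727) and Espl1 (1.77, 0.00608), or separase, which cuts cohesin. Ube2s, which extends the ubiquitin chains, had a difference of 0.94 (adjusted p = 0.0651). Of 11 cohesin genes 1 rose, Esco2 (4.19, adjusted p = 0.00211), which acetylates the ring during DNA replication, and the ring subunit Rad21 had a difference of 0.26 (0.324). Of 8 condensin genes, which compact mitotic chromosomes, 4 rose: Ncaph (1.55, adjusted p = 0.00862), Smc2 (1.87, 0.0108), Ncapg2 (1.61, 0.0115) and Ncapd2 (1.25, 0.0335). The calls of Ncaph, Smc2 and Ncapg2 were lost without knockout 72, those of Smc2 and Ncapg2 also without control 75 and that of Ncapg2 also without knockout 86 (adjusted p up to 0.0731), and that of Ncapd2 held without control 75 alone (up to 0.139).

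Of 11 genes of the kinases that drive entry into mitosis and their partners, 6 rose. Cdk1, the master kinase, differed by 4.44 (adjusted p = 0.0011) and its cyclin Ccnb2 by 4.19 (0.00141). Plk1, which also works at kinetochores, differed by 2.28 (adjusted p = 0.00571) and Aurka, the spindle pole counterpart of Aurkb, by 2.72 (0.00608). Among 11 regulators of late cell cycle transcription, which include subunits of the complexes that bind CHR elements, 1 rose: Rbl1, which encodes the p107 pocket protein (1.23, adjusted p = 0.0121). E2f1 had a difference of 1.64 (adjusted p = 0.0542) and Tfdp1, the partner of E2F proteins, 0.47 (0.125). Rbl2, which encodes the p130 pocket protein of resting cells, had a difference of -0.58 with an adjusted p of 0.0637. The call of Rbl1 was lost without control 75 or without any 1 of the knockout arrays (adjusted p up to 0.0784).

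**Figure D5:**
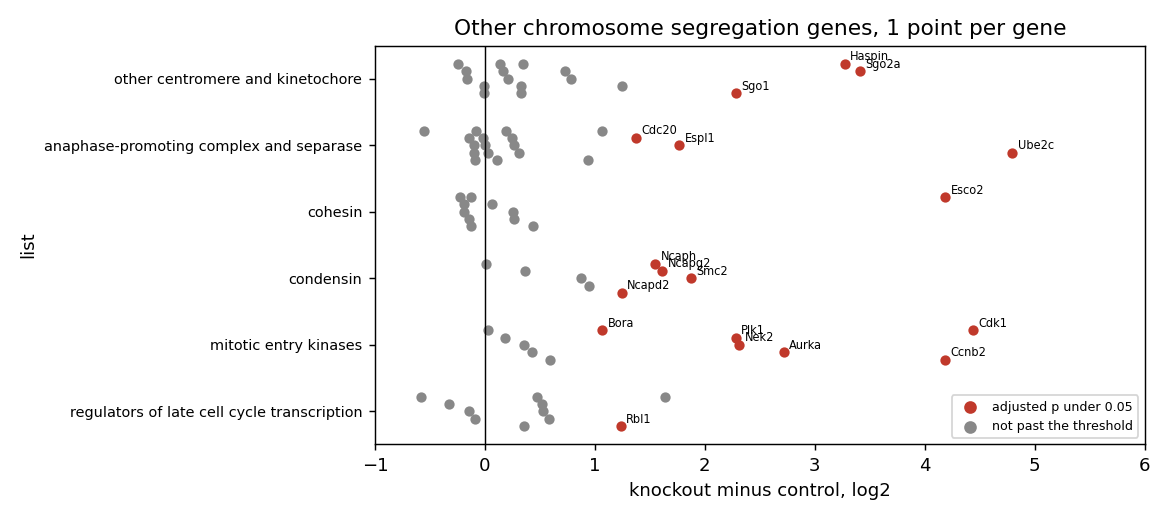
Difference between knockout and control (log2, horizontal axis) of each gene in the 6 lists of chromosome segregation, with 1 row per list and the genes past the threshold in red. The 18 red points all lie above 1, and 6 of them are in the row of mitotic entry kinases.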

How the data were processed

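The authors deposited 1 linear intensity per probe set and array, and no label or header used here says how these were summarised and scaled. Names came from the array's annotation as of 2016: 34945 of 45037 probe sets carry a single symbol, 932 more than 1 and 9160 no symbol. Tests by gene took the first kind, each gene at its probe set with the highest mean, and 34741 of them matched a RefSeq gene of GRCm38.p6. From these values log2(intensity + 1) was computed and quantile normalized, and knockout was compared with control in limma 3.58.1 (R 4.3.3; lmFit, eBayes with a trended prior, 2-sided, Benjamini-Hochberg adjustment), with 3 arrays per group from separate mice, a number that limits the precision. A second fit took every probe set.

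The members and lists were chosen with earlier results of these data known. Array values are given for up to 4 genes per role with the smallest p and the one with the largest. Cenph, Kntc1 in part and the dimmer probe sets were added after their values were seen. Of each pathway list, up to 4 genes with the smallest p are named, without array values. Pttg1 was added after its values were seen. Other filters, pseudocounts, normalizations, probe set rules, variance priors and weights were tried, and each array was left out in turn.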

Additional observations from a re-analysis of the deposited data

How the results depend on the processing

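Of the 41 genes, 0 fell under any alternative tried. The filter on signal tested 27 of the 41 genes, and 11 of these passed it only through their knockout arrays. Of the 16 genes with a control mean at or above its level, 3 rose in the fit without the filter, against 1.36% of all genes at or above it. The count of 22 that rose was 13 under the filter and 13 at an adjusted p under 0.01. It was between 18 and 26 under the other settings that kept all arrays, and 11 to 22 with 1 array left out, newly called genes included. The 22 without control 74 held 20 of the original 22, and the 14 without control 75 held 13 of them. A setting added after the data were seen left out 1 array and kept each gene at its probe set of the fit of 6 arrays. The count there was 14 without control 75, 12 without knockout 72, 14 without knockout 86 and 16 to 21 without the others. Among all probe sets of these genes the count of 29 was 10 at an adjusted p under 0.01 and 7 to 23 with 1 array left out. The 18 pathway genes that rose were 10 to 19 with 1 array left out, and with array weights 1 fell, Rbl2 (adjusted p = 0.0252). The median difference of 1.58 was 1.01 under the filter, 1.25 with a pseudocount of 16, 1.96 without normalization, 1.86 under median centring and 1.31 to 1.87 with 1 array left out. Median centring moved the median of all genes to -0.12. Itgb1 kept its direction and stayed on the same side of the threshold. Ska1 turned positive with a pseudocount of 16 (2.02), without normalization (3.36), under median centring (3.26) and with probe sets averaged (2.42), and lay between -0.20 and 3.45 with 1 array left out; kept at its probe set it was 0.0418 without control 75 and 0.14 without knockout 73. Averaging the probe sets also turned Mad1l1 (0.044), Zwint (0.15), Zw10 (-0.12), Pds5a (-0.064) and Stag2 (0.0089). The calls of Cenpa, Ttk and Incenp were lost under that averaging. Leaving out probe sets with the suffix x or s turned Pmf1 (0.0199), Bub3 (-0.28), Ube2s (-0.22) and Pds5a (-0.0275). Zw10 was -0.016 under median centring, -0.0598 with array weights and -0.0546 to 0.0985 with 1 array left out (-0.032 without control 74), and Zwint was -0.30 to 0.14 with 1 array left out. The cause of these changes was not tested, except that the filter tested fewer genes that Ska1 took another probe set without normalization, under median centring, with a pseudocount of 16 and without any 1 control, that Aurkb did so without control 75, knockout 72 or knockout 73, and that leaving out suffixes changes the probe set by construction. No paired analysis was possible because the groups share no replicate numbers.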
